A study of Homo sapiens with 6 samples.

Results

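RNA G-quadruplexes (rG4s) were examined in the mRNAs of 10 genes for which earlier single-gene studies described such structures: NRAS, VEGFA, TERF2, BCL2, ADAM10, TGFB1, CCND3, FZD2, PIM1 and FXR1. The genes were chosen by name from that earlier work, and 1 RefSeq transcript of each was found among the 15739 RefSeq transcripts in the files. All 10 transcripts had listed RT stops in both libraries without dimethyl sulfate (DMS) and in the in vitro library in Li+, and 9 of 10, all but BCL2, in the other 3 libraries. The measurements came from U2OS, a human osteosarcoma cell line, with 1 library of poly(A)-selected mRNA for each of 6 conditions, so differences between conditions could not be checked on replicates, and every interval below is for counting error alone. RNA without DMS was reverse transcribed in 150 mM of the cation. RNA extracted from the cells was folded and modified with DMS in vitro in 150 mM K+ or Li+, and DMS was given in cells at 8% for 5 min to unstressed cells or to cells starved for 2 h. The listed RT stops summed to between 12999691 in unstressed cells and 35371061 in the library without DMS labelled K+.

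The sample labels call the libraries without DMS Na+ and K+, whereas the names of their files carry the opposite cations. They are therefore called here the library labelled Na+ and the library labelled K+, differences are given for both directions, and neither library is taken as the one with K+.

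An rG4 is a stack of guanine tetrads held together by a monovalent cation, with K+ the most effective of the common cations. A folded rG4 halts reverse transcriptase (RT) at its 3′ edge, so the cDNA ends there and a pile of RT stops appears at a guanine. In the DMS libraries, guanines that were held in a tetrad while DMS was present are protected at N7 and can fold again during reverse transcription in K+, whereas methylated guanines cannot. rG4s in 5′ UTRs have been studied mostly as elements that lower translation, and the NRAS element is among the best known of them. The genes span a small GTPase (NRAS), an angiogenic growth factor (VEGFA), a telomere-binding protein (TERF2), an inhibitor of apoptosis (BCL2), a cell surface protease (ADAM10), a secreted cytokine (TGFB1), a D-type cyclin (CCND3), a Wnt receptor (FZD2), a serine/threonine kinase (PIM1) and an RNA-binding protein of the FMR1 family (FXR1). The described elements lie in the 5′ UTR in 8 of the genes and in the 3′ UTR in PIM1 and FXR1.

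The motifs searched had 4 G runs in the sense strand of the transcript. The runs were of 3 or more G joined by loops of 1 to 7 nt, or of 2 or more G joined by loops of 1 to 9 nt. In the named UTRs, motifs of the second kind were kept wherever they did not overlap one of the first kind. The 8 matches with runs of at least 3 G in the UTR named by the earlier studies are shown first, 5′ to 3′, because they are the elements whose RT stops were looked up. Capitals mark runs of at least 3 G. All positions are on GRCh37, with the strand of the transcript in parentheses.
NRAS 5′ UTR, exon 1, chr1:115259484-115259501 (-): GGGaGGGGcGGGtctGGG
TERF2 leader, exon 1, chr16:69419768-69419783 (-): GGGaGGGcGGGGaGGG
BCL2 5′ UTR, exon 2, chr18:60985942-60985966 (-): GGGGGccgtGGGGtGGGagctGGGG
ADAM10 5′ UTR, exon 1, chr15:59042084-59042112 (-): GGGGGacGGGtaGGGGcGGGaggtaGGGG
CCND3 5′ UTR, exon 1, chr6:41909503-41909522 (-): GGGcggcGGGcGGGctGGGG
FZD2 5′ UTR, exon 1, chr17:42634999-42635023 (+): GGGttGGGGGcGGGGGcGGGGGGGG
PIM1 3′ UTR, exon 6, chr6:37142145-37142166 (+): GGGGGtGGGGGGtGGGGGtGGG
FXR1 3′ UTR, exon 17, chr3:180694373-180694394 (+): GGGGGGtggtGGGtGGGGtGGG

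A second set of 3 sequences is shown because strong RT stops were found at their last base. Each is the 30 nt that end at the stop, and capitals mark runs of at least 2 G, so the last capital is the guanine at which RT halted.
FZD2 3′ UTR, exon 1, chr17:42637818-42637847 (+): agtgataaagacGGGtGGGttGGaGGGaGG
PIM1 3′ UTR, exon 6, chr6:37142976-37143005 (+): GGGtcccGGctctgtGGGtgatGGGGaGGG
CCND3 3′ UTR, exon 5, chr6:41903403-41903432 (-): ctctagctGGGGGtGGGccaGGctgatGGG

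The leaders of VEGFA and TERF2 need a remark. The GENCODE reading frame of VEGFA starts at an upstream codon, and that of TERF2 at nt 1 of the RefSeq transcript, so the G-rich stretches of both leaders are annotated as coding sequence. They lie 5′ of the next in-frame ATG, which is at nt 1039 of VEGFA and nt 127 of TERF2.

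Coverage decided first what could be read from each mRNA. The mean number of RT stops per nucleotide of the whole transcript was used as the measure, with a minimum of 1 in both libraries without DMS. NRAS was the best covered, with means of 3.56 in the library labelled Na+ and 3.80 in that labelled K+. TGFB1 (2.35 and 2.15), ADAM10 (1.84 and 1.96), CCND3 (1.77 and 1.82) and FXR1 (1.48 and 1.49) also passed, so 5 of 10 mRNAs were above the minimum. PIM1 (0.71 and 0.58), TERF2 (0.49 and 0.47), VEGFA (0.45 and 0.49) and FZD2 (0.34 and 0.32) fell under it but stayed above 0.25, the lower setting. BCL2 was practically not covered, with 7 listed nucleotides in the library labelled Na+, 2 in that labelled K+, 1 in vitro with Li+ and 0 elsewhere.

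Coverage after DMS differed between the libraries. The mean reached 1 for 4 of 10 mRNAs in vitro with K+ and 5 with Li+, and for 2 in each of the cell libraries. The pair differed between the cell libraries, with TGFB1 (1.09) and CCND3 (1.05) in unstressed cells and NRAS (2.76) and FXR1 (1.48) in starved cells. No mRNA of the set reached 1 in all 6 libraries.

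**Figure D1:**
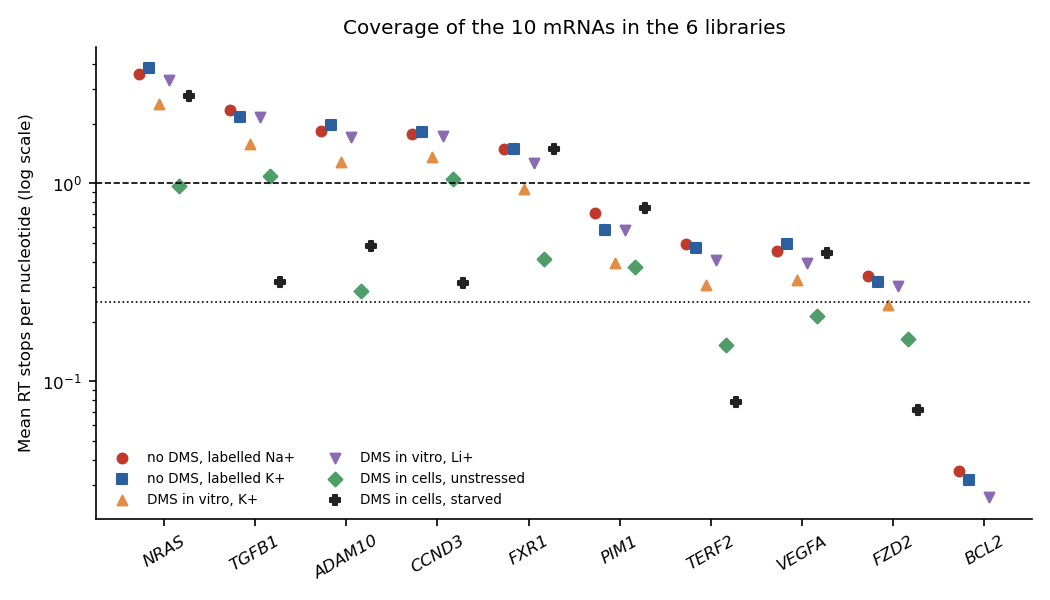
Mean number of RT stops per nucleotide (y axis, log scale) of the 10 mRNAs (x axis) in each of the 6 libraries, 1 point per library. The dashed line marks a mean of 1 and the dotted line 0.25; 5 mRNAs lie above 1 in both libraries without DMS, and BCL2 lies far below all others.

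A stop was called strong when its count was at least 10 times the transcript mean (E, enrichment of at least 10), and cation-sensitive when E was at least 2-fold higher in one library without DMS than in the other. Nucleotides with fewer than 3 stops are not listed and were counted as 0, and a fold against such a nucleotide is given as a lower bound against 3 stops. In the UTR named by the earlier studies, a motif carried a strong stop at G that was cation-sensitive in 3 of the 5 covered mRNAs, FXR1, TGFB1 and ADAM10. In all 3 the stop was stronger in the library labelled Na+, and 0 of 5 had one stronger in the library labelled K+. Among all transcripts above the minimum with a motif in the 5′ UTR, 11.4% had such a stop stronger in the library labelled Na+ and 0.110% in the library labelled K+, and for motifs in the 3′ UTR the shares were 34.1% and 0.852%. Given these shares, stalling 3′ UTR motifs were more common than stalling 5′ UTR motifs in general, and with 5 covered mRNAs the count is a description of these mRNAs only.

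The FXR1 element had the stop with the most counts of the set. At its last guanine, nt 2420, 407 stops were listed in the library labelled Na+ (E of 275) and 8 in the library labelled K+ (E of 5.38). E was 51.1-fold higher (95% interval 25.7 to 119). Further strong stops stood at nt 2419 (114 against unlisted), nt 2414 (132 against unlisted) and nt 2415 (37 against 8), so the stops fell on the last 2 G runs of the element. The E of FXR1 was raised by a part of the transcript without stops. Beyond nt 2948 of the 8567 nt model 0 to 9 stops were listed in each library, and against the mean of the part with stops E at nt 2420 was 94.6 in the library labelled Na+ and 1.85 in that labelled K+, so the order of FXR1 and PIM1 by E depends on the model used.

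The PIM1 element showed the same shape at lower coverage. At its last guanine, nt 1671, 151 stops were listed in the library labelled Na+ (E of 213) and none in the library labelled K+, so E was at least 41.2-fold higher. The guanines at nt 1670 (37 stops), nt 1665 (28 stops) and nt 1664 (10 stops) were also strong in the library labelled Na+ and unlisted in the other. Guanines of the 30 nt ending at nt 1671 took 241 of the 949 listed stops of PIM1 (25.4%) in the library labelled Na+ and 6 of 550 (1.09%) in the library labelled K+. PIM1 was not among the 3 mRNAs counted above, because its mean was under 1.

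In the TGFB1 5′ UTR the stops lay inside a long G-rich stretch that held runs of 2 or more G in many registers. The strongest guanine had 164 stops in the library labelled Na+ (E of 69.9) and none listed in the library labelled K+, at least 50.2-fold higher. Its 5′ neighbour had 78 stops against 10. A second pair of guanines further 3′ in the stretch had 34 and 37 stops, both unlisted in the library labelled K+. Coverage just 3′ of the stretch was alike, with 29 listed stops in the next 50 nt in each library. These 4 strong stops were all the strong stops at G of TGFB1 in the library labelled Na+, and the library labelled K+ had 0.

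In the ADAM10 5′ UTR the stalled motif was not the one with runs of 3 G. A shorter motif with runs of 2 or more G at nt 235 to 246 had in the library labelled Na+ 21 stops at its last guanine (E of 11.4), a nucleotide unlisted in the library labelled K+, at least 7.45-fold. This stop was just above the threshold of 10.

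**Figure D2:**
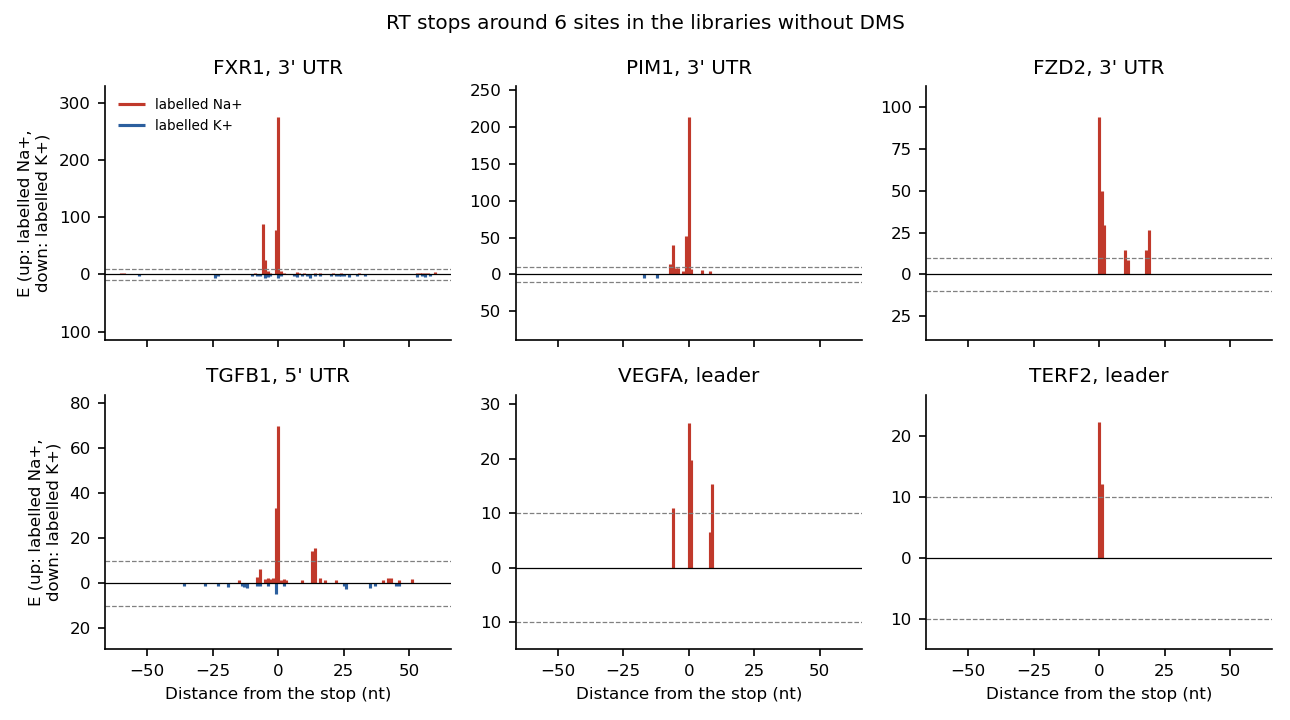
RT stops around 6 sites in the libraries without DMS: E of every listed nucleotide (y axis; upward bars the library labelled Na+, downward bars the library labelled K+) against the distance from the strongest stop (x axis, nt). Dashed lines mark an E of 10; at all 6 sites the bars of the library labelled Na+ pass it and those of the library labelled K+ do not.

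The element most often cited, that of NRAS, could not be read. It lies at nt 15 to 32, and neither the element nor the 50 nt 3′ of it had a listed nucleotide of any base in the libraries without DMS. The first listed nucleotide of NRAS was nt 143 and nt 140 in these libraries, and the matched GENCODE transcript begins 123 nt 3′ of the RefSeq start, so the element lies outside the GENCODE model. The ADAM10 element, nt 66 to 94, was in the same position. It had 0 listed nucleotides in it and in the next 50 nt, the first listed nucleotide was nt 220 and nt 212, and the GENCODE transcript begins 271 nt 3′ of the RefSeq start. The FZD2 element (nt 188 to 212) had 0 listed nucleotides in it and 1 in the next 50 nt in each library, and that of BCL2 (nt 427 to 451) 0 in it and 1 and 0 in the next 50 nt. In these 4 mRNAs the lack of a stop was therefore not a measurement of the element.

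CCND3 was the one covered mRNA whose element with runs of 3 G was read and did not reach the threshold. The 50 nt 3′ of the element had 13 listed nucleotides in each library, with 59 stops in the library labelled Na+ and 47 in that labelled K+. Within the element 5 guanines were listed in the library labelled Na+, the strongest with 5 stops at nt 49 (E of 2.83), and none in the library labelled K+. The stop thus lay at the 3′ edge of the motif and in the same direction as in FXR1, but at an E under 10.

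TERF2 and VEGFA had strong stops in their leaders on few counts. In TERF2, 11 stops at nt 106 (E of 22.3) and 6 at nt 107 were the only listed nucleotides of the element, at its last G run, in the library labelled Na+, and none was listed in the library labelled K+, at least 3.51-fold for nt 106. In VEGFA, 4 strong stops of 12 (E of 26.5), 9, 7 and 5 counts were listed in 1 G-rich stretch in the library labelled Na+ and none in the library labelled K+, at least 4.35-fold for the strongest. Another G-rich motif of the VEGFA leader, nt 774 to 790, had no listed nucleotide in it or in the next 50 nt in either library. With the leaders of both genes included and a mean of 0.25 allowed, 6 of 10 mRNAs had a stalled motif in the described UTR, all of them stronger in the library labelled Na+: FXR1, PIM1, TGFB1, ADAM10, TERF2 and VEGFA. This extension of the leaders was chosen after seeing the data. Of the 10 mRNAs, 9 reached a mean of 0.25 in both libraries. The share over all transcripts at this setting is not given, and the shares above are for a mean of at least 1. The 6 therefore cannot be compared with a background and describe these mRNAs only. At such low means few counts passed an E of 10, with 5 stops enough in VEGFA and 6 in TERF2.

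How often motifs stall also depended on where they lay. Among all transcripts above the minimum, 79.4% of 457 motifs with runs of 3 G in 3′ UTRs carried a cation-sensitive strong stop stronger in the library labelled Na+, compared with 35.2% of 165 in coding sequences and 22.8% of 378 in 5′ UTRs. No listed stop at G at all was found for 3.94%, 14.5% and 35.2% of them. Of the covered members, the 3′ UTR element of FXR1 carried such a stop and the 5′ UTR element of CCND3 did not, whereas the elements of NRAS and ADAM10 were not read.

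Strong stops were found outside the elements shown first as well. Stops within 30 nt were merged into 1 site and named by the strongest. In the FZD2 3′ UTR, 6 strong stops stood between nt 3036 and nt 3055. The strongest, nt 3036, had 32 stops in the library labelled Na+ (E of 94.0) against none, at least 9.98-fold. By contrast, nt 1988 of FZD2 was strong in both, with 11 and 7 stops. In all libraries but the one labelled Na+ no listed guanine of FZD2 had more stops, with a tie at 3 stops in starved cells. In the PIM1 3′ UTR, a second site at nt 2510 had 74 stops against none (at least 20.2-fold) and another at nt 1761 had 27 against none (at least 7.36-fold). In the CCND3 3′ UTR, nt 1319 had 38 stops against 8, which was 4.89-fold (2.25 to 12.1).

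Over the 5 covered mRNAs, 14 of 25 strong stops at G of the library labelled Na+ were cation-sensitive, compared with 75.0% of 5948 over all transcripts. For the library labelled K+ it was 5 of 21, compared with 14.1% of 1758. FXR1 alone held 7 of the 14 and 4 of the 5. At least 1 such stop was found in all 5 covered mRNAs for the library labelled Na+ (all transcripts 37.9%) and in 2 of 5 for the library labelled K+ (4.94%). The 5 stops stronger in the library labelled K+, 4 in FXR1 and 1 in CCND3, were close to the thresholds. The 4 in FXR1 had 15 stops each against 5 to 7, at an E of 10.1, and that in CCND3, nt 1376, had 19 against 9. With the mean of FXR1 taken over the part with stops, the counts were 10 and 1.

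**Figure D3:**
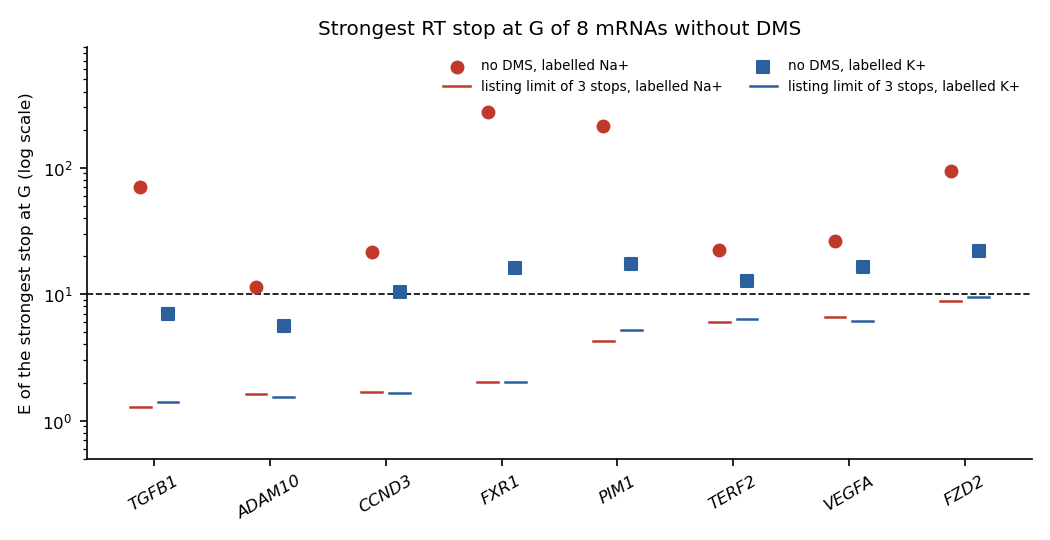
E of the strongest RT stop at G anywhere on 8 mRNAs (y axis, log scale) in the libraries without DMS labelled Na+ (circles) and K+ (squares); horizontal ticks mark the E of 3 stops, the smallest listed count, and the dashed line an E of 10. The strongest stop was higher in the library labelled Na+ in all 8, from 11.4 in ADAM10 to 275 in FXR1, and in FZD2 the listing limit itself was near 10.

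The share of all RT stops that fell on G was higher in the library labelled Na+ for most of the set. Apart from BCL2, which was practically not covered, PIM1 had the widest gap, with 40.9% (95% Wilson interval 38.7 to 43.1) against 26.8% (24.7 to 29.1). FZD2 had 35.6% (33.0 to 38.2) against 27.1% (24.7 to 29.7), TGFB1 33.4% against 28.7% and FXR1 26.9% (26.1 to 27.7) against 22.4% (21.6 to 23.1). The intervals of these 4 mRNAs did not overlap, nor did those of NRAS, 20.3% (19.70 to 20.95) against 18.4% (17.84 to 19.01). The intervals overlapped for ADAM10, with 21.6% (20.7 to 22.6) against 20.7% (19.8 to 21.6). They also overlapped for CCND3 (30.3% against 28.1%) and TERF2 (26.3% against 23.9%). For VEGFA the order was opposite, 24.4% against 24.9%. The share of all transcripts without overlap is not given. The medians over all transcripts with a mean of at least 1 were 24.9% and 23.9%.

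DMS methylates A and C at positions that halt RT, so in the DMS libraries most stops were at these bases and the share at G fell. Over the 5 covered mRNAs together, stops at G were 24.7% and 21.8% without DMS (labelled Na+ and K+), 14.4% and 14.0% in vitro (K+ and Li+), and 11.8% and 15.6% in cells (unstressed and starved). In FXR1 stops at A or C were 48.5% and 52.3% without DMS, 79.3% and 78.6% in vitro, 84.1% in unstressed cells and 76.2% in starved cells. The lower share at A or C in starved than in unstressed cells was seen for NRAS (75.3% against 85.0%), ADAM10 (77.9% against 85.8%), TGFB1 (74.6% against 80.1%), CCND3 (67.0% against 76.9%) and PIM1 (64.8% against 81.3%) too, and for the median over all transcripts (74.7% against 82.6%). Its part in the values of E at G was not tested.

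The in vitro libraries ask which sites keep a stop when DMS is given in K+ and lose it in Li+. At nt 2420 of FXR1, 27 stops were listed in K+ (E of 28.8) and 13 in Li+ (E of 10.3), a ratio of 2.80 (1.40 to 5.91). Summed over all guanines of the 30 nt ending there, the stops were 44 and 47 and the ratio of E was 1.26 (0.82 to 1.95), so the difference was at the last guanine and was not seen over the element. At nt 1671 of PIM1, 13 and 11 stops gave a ratio of 1.74 (0.72 to 4.30), and the sums of 17 and 27 a ratio of 0.93 (0.48 to 1.77). For PIM1 the interval leaves room for a difference of up to 4.30-fold in favour of K+ at the single guanine.

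In the other described 5′ UTRs and leaders with a strong stop, few or no stops were listed in vitro at the strongest guanine. At the strongest guanine of TGFB1, 4 stops in K+ and 5 in Li+ gave E of 2.54 and 2.31 and a ratio of 1.10 (0.22 to 5.11). ADAM10 nt 246, TERF2 nt 106 and the strongest guanine of the VEGFA leader were unlisted in both, though at the coverage of TERF2 and VEGFA 2 stops would already be an E of 4.87 to 6.53. Of the 8 sites of the set that were stronger in the library labelled Na+, were listed in at least 1 in vitro library and had a mean of at least 0.25 in both, E was at least 2-fold higher in K+ at 4 and in Li+ at 1, with unlisted nucleotides counted as 0. Over all transcripts these shares were 35.2% and 29.9%. Only 4 of the 8 were listed in both libraries, and of these 1, FXR1 nt 2420, was at least 2-fold higher in K+. Another 6 sites of VEGFA, CCND3 and FXR1 were stronger in the library labelled K+, and of these 2 were at least 2-fold higher in K+ and 3 in Li+, on at most 8 stops each (all transcripts 27.5% and 52.1%).

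The cell libraries ask whether the same sites keep a stop in unstressed or starved cells. At nt 2420 of FXR1 no stop was listed in unstressed cells, where 2 stops would be an E of 4.86, and 42 were listed in starved cells (E of 28.3). E was at least 3.88-fold higher in starved cells, or at least 2.59-fold when scaled to the stops at G and U only. Summed over the guanines of the 30 nt ending there, the listed counts were 3 in unstressed and 105 in starved cells. In unstressed cells 1 of 21 guanines was listed. Each unlisted one could hold stops below the listing minimum of 3, so these sums give no fold for E. On the scale on which 0 is the E in vitro in Li+ and 1 that in K+, nt 2420 scored -0.56 in unstressed cells with the unlisted stop as 0, -0.29 with it as 2, and 0.97 in starved cells. FXR1 nt 2420 was the one site of the set for which this score was given. At the others E in K+ was not at least 2-fold that in Li+, or it rested on at most 5 stops.

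At nt 1671 of PIM1 no stop was listed in unstressed cells and 18 were listed in starved cells (E of 24.1), at least 3.04-fold higher. Scaled to the stops at G and U only, the bound was 1.62-fold. PIM1 nt 2510 had 7 stops in starved cells and none in unstressed cells, which is a bound of 1.18-fold. Scaled to G and U only it was 0.63-fold, so no rise was shown on that scale. The listed stops at guanines of the 30 nt ending at nt 1671 were 25 in starved cells and 0 in unstressed cells. For nt 2510 they were 35 and 0. Each unlisted guanine could hold stops below the listing minimum of 3, so these sums give no lower limit for the ratio of E. The strongest guanine of TGFB1 had no listed stop in either cell library. For TGFB1 the coverage in starved cells was low, and an E of up to 6.31 would not have been listed. That limit uses the mean of the whole transcript. The 5′ UTR held 13.8% of the listed stops of TGFB1 in unstressed cells and 6.87% in starved cells. Without DMS it held 34.4% (labelled Na+) and 30.4% (labelled K+). In unstressed cells it had 0.22 listed stops per nt, compared with 1.00 in the coding sequence. ADAM10 had 0 listed nucleotides in its 5′ UTR in both cell libraries.

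Of the 7 sites of the set that were stronger in the library labelled Na+ and listed in at least 1 cell library, all of them in PIM1 or FXR1, E was at least 2-fold higher in starved cells at 6 and at least 2-fold lower at 0, with unlisted nucleotides as 0. Over all transcripts the shares were 71.6% and 12.3%. The 6 sites of the set were listed in starved cells only, so with unlisted nucleotides as 0 they count as higher by construction. With unlisted nucleotides counted as 3, 2 of the 7 were at least 2-fold higher, FXR1 nt 2420 and PIM1 nt 1671. The seventh site, FXR1 nt 2091 in the coding sequence without a motif, went from 3 stops in unstressed cells to 15 in starved cells, a ratio of 1.39 (0.39 to 7.47). Of the sites stronger in the library labelled K+, 2 were listed in cells, both in FXR1. At nt 2065 the count was 3 without and 10 with starvation, a ratio of E of 0.92, and at nt 2686 it was 0 and 3 (over all transcripts 72.1% of such sites were at least 2-fold higher and 9.67% at least 2-fold lower).

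**Figure D4:**
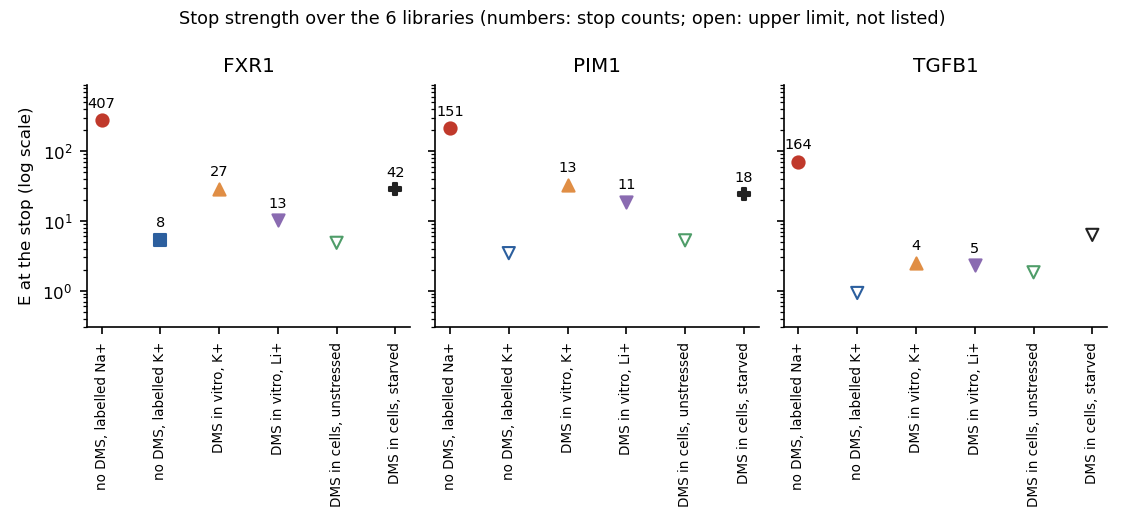
E at the strongest stop of FXR1, PIM1 and TGFB1 (y axis, log scale) in each of the 6 libraries (x axis). Filled points carry their stop counts, and open triangles give the E of 2 stops where the nucleotide is not listed; FXR1 and PIM1 have 42 and 18 stops in starved cells and none listed in unstressed cells, whereas TGFB1 has none listed in either.

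The level of the mRNAs in the cell libraries differed too, and it set what could be seen at each site. As RT stops per kb and 1000000 stops of the library, TGFB1 went from 61.9 in unstressed cells to 10.9 in starved cells, 5.68-fold lower, and CCND3 59.9 and 10.8, 5.55-fold lower. FXR1 had 23.4 and 51.1, 2.18-fold higher. NRAS had 55.3 and 94.9 (1.72-fold higher), PIM1 21.6 and 25.7 (1.19-fold higher), VEGFA 12.1 and 15.3 (1.26-fold higher) and ADAM10 16.3 and 16.5. TERF2 and FZD2, with 5 listed nucleotides each in starved cells, had 2.71 and 2.47 there and 8.68 and 9.29 in unstressed cells. Of 6185 transcripts compared, 13.7% were at least 2-fold higher and 29.4% at least 2-fold lower in starved cells, with a median log2 difference of -0.13. TGFB1 and CCND3 lay above 2.52% and 2.72% of these transcripts and FXR1 above 89.7%. Less mRNA per cell and fewer RT stops per molecule cannot be told apart in these libraries. In the 4 libraries without DMS treatment of cells the levels varied less, for example from 47.5 to 54.6 for TGFB1 and from 31.9 to 34.1 for FXR1. ADAM10 stood at 42.4 to 43.9 there, more than in either cell library.

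**Figure D5:**
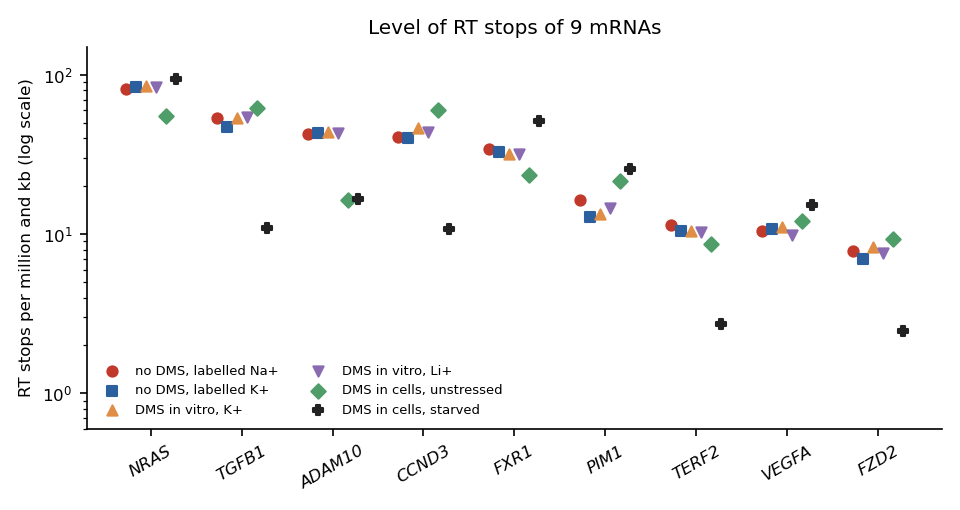
RT stops per kb and 1000000 stops of the library (y axis, log scale) of 9 mRNAs (x axis) in the 6 libraries, 1 point per library. TGFB1 and CCND3 are lowest in starved cells, at 10.9 and 10.8, and FXR1 is highest there, at 51.1; the 4 libraries without DMS treatment of cells lie close together for each mRNA.

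The other mRNAs with rG4s from single-gene work gave no strong cation-sensitive stop. Of 19 such genes, 18 had a transcript in the files and 6 passed the minimum in both libraries without DMS. None of the 6 had a strong stop at G at least 2-fold stronger in either library. Over all transcripts above the minimum, 37.9% had one stronger in the library labelled Na+ and 4.94% in the library labelled K+. The count describes these 6 mRNAs only. Below the threshold were YY1 with 21 stops at nt 163 of its 5′ UTR (E of 9.11) and PPP2CA with 49 stops at nt 394 of its 5′ UTR (E of 8.81), each unlisted in the library labelled K+. These stops were named after their values were seen.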

How the data were processed

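RT stops of polyadenylated U2OS mRNA were measured in 6 libraries, 1 per condition. By the study's methods, fragments of 60 to 80 nt were ligated to an adapter and reverse transcribed, and cDNAs of 20 to 45 nt were kept. The authors mapped the reads with Bowtie to hg19 transcripts (version not given in the sources used here) and deposited whole counts of RT stops for nucleotides with at least 3 stops. The deposited ratio relates each count to the mean of the transcript's nucleotides with the same base.

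Transcript means were rebuilt from the count, the ratio and the base composition of the matched GENCODE transcript on GRCh37. A match needed at least 15 listed bases and 97% identity over 80% of them. BCL2 had 10 listed bases and VEGFA 507, and both were placed by their best offsets, VEGFA in 2 pieces. A transcript model was used up to 30 nt past its last listed nucleotide, or whole where this gave fewer stops than were listed. In this step the share of stops at a base without a listed nucleotide is 0, which limits TERF2 and BCL2.

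E is the stop count over the transcript mean. A stop belonged to a motif if it lay in it or up to 5 nt 3′ of it. Ratios have exact conditional binomial 95% intervals, and shares Wilson intervals. All named sites were element stops, cation-sensitive strong stops at G, or the strongest stop at G of a library without DMS. The 10 genes and the list of 19 others were chosen with earlier results of these data known. Some items are not reported here. The calling was tested on simulated data. Analyses ran in Python 3.11.15 with scipy 1.17.1, pandas 2.3.3 and numpy 2.4.6.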

Additional observations from a re-analysis of the deposited data

How the results depend on the processing

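With 1 library per condition no replicate could be left out. No paired analysis was possible because each condition has a single library. The extended leaders, the FXR1 mean over the part with stops, unlisted nucleotides as 3, the limit to sites listed in both libraries and the sites stronger in either library were chosen after seeing the data. There were 3 members with a stalled motif in the described UTR stronger in the library labelled Na+. They became 6 with the leaders of VEGFA and TERF2 extended and a mean of 0.25. They became 1 (FXR1) with runs of at least 3 G only, and 0 at a mean of 3, which NRAS alone passes. At a mean of 0.25 or 3 instead of 1, coverage held for 9 or 1 members. The 14 and 5 cation-sensitive stops (labelled Na+ and K+) were 52 and 30 at an E of 5, 8 and 0 at an E of 20, 42 and 15 at a mean of 0.25, and 1 and 0 at a mean of 3. Of these, the 5 were 2 with the deposited ratio, 9 with a fold of 1.5, 0 with a fold of 3, 1 with both libraries thinned to the smaller total and 1 with the mean of FXR1 over the part with stops. Of the 4 sites higher in vitro in K+, 1 was left when listed in both or with unlisted nucleotides as 3, and the 1 lower became 0 there and with unlisted nucleotides as 2, and 4 of 14 with sites stronger in either library. Of the 6 sites higher in starved cells, 2 were left with unlisted nucleotides as 2 or 3 and 0 when listed in both, where 1 site remains. From listed stops only, the share at G was 21.2% (labelled K+), 9.10% and 10.3% (in vitro K+ and Li+), 5.61% (unstressed) and 13.4% (starved). At an E of 5, the other mRNAs with a cation-sensitive stop were 6 (labelled Na+) and 4 (labelled K+) in place of 0. In the 55 other comparisons of counts or shares with an alternative the count stayed within 1.5 times, or the share within its interval. Depth limits the cell comparisons too, with 284 listed stops of ADAM10 in unstressed and 772 in starved cells.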
